A study of Mus musculus with 8 samples.

Results

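Astrocytes clear neurotransmitter from synapses, carry water and ions to the vessel wall and deliver lipoprotein particles to their neighbours, and 8 genes that mark this cell type were followed here in sorted cells of the oligodendrocyte lineage. The 8 genes were chosen by name as Apoe, Clu, Glul, Aldh1l1, Gfap, S100b, Aqp4 and Sparcl1, and all 8 were listed among the 11315 genes of the RNA-seq tables. Their CpG sites, taken from the promoter, exon and intron columns of the hydroxymethylation tables, numbered 175 of 1497075. Several of the genes are not private to astrocytes, since oligodendrocytes also make Glul and S100b and microglia also make Apoe, so their RNA in a sort does not by itself count astrocytes.

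All cells came from the brain of C57BL/6 mice at postnatal day 60 and were sorted by fluorescence. Progenitors of the adult brain (aOPC, adult oligodendrocyte progenitor cells) were taken from a PDGFRa-EGFP reporter line (also labelled PDGFRa::GFP), in which cells that express the receptor Pdgfra fluoresce, and adult oligodendrocytes (aOL) from mice with a PLP::GFP reporter, driven by the promoter of the myelin proteolipid gene. The groups therefore differed in reporter line as well as in cell stage, and these cannot be told apart. Each population had 2 RNA-seq libraries and 2 libraries of reduced representation hydroxymethylation profiling (RRHP), numbered replicates 2 and 3. The titles set the groups, because in the aOL samples of RRHP the field for tissue gives the other reporter, Pdgfra, and the aOL RNA samples are called pre-myelinating in their titles but myelinating in the protocol. The study calls the RRHP replicates biological and describes the aOPC sorts for RNA as independent preparations, while the labels do not give the number of mice behind each library. The p-values measure the spread between these libraries.

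The sorted populations carried their lineage markers unevenly. The median of 10 oligodendrocyte markers was 17.77 and 17.20 (log2 value) in aOPC against 17.48 and 17.57 in aOL, and the aOPC libraries held oligodendrocyte transcripts as well. The median of the 9 progenitor markers listed was 8.63 and 6.43 in aOPC against 6.39 and 6.83 in aOL. Over the genes tested, the aOPC libraries lay a median of 0.48 apart and the aOL libraries 0.12. RRHP libraries held from 7113237 (aOPC replicate 2) to 27057859 counts, and the limit of 3 counts was 0.422 CPM (counts per 1000000 counts of the library) in aOPC replicate 2 and 0.111 to 0.188 CPM in the others.

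To ask whether the astrocyte genes differed between aOPC and aOL, their RNA values were compared gene by gene. None of the 8 genes was called, 6 lay lower and 2 higher in aOL on average, and only for Apoe, Glul and Gfap did the groups not overlap, each time with aOL lower. The median difference of the 8 genes (aOL minus aOPC) was -0.68 on the log2 scale, against 0.02 over all 11133 genes tested. Calls were made with limma at p under 0.01 and a Benjamini-Hochberg adjusted p under 0.05 over all genes tested, which called 0.0808% of them. Apoe and Gfap had an unadjusted p under 0.05, that is 2 of the 8 genes, a share close to the 24.0% of all genes tested. Without overlap, 29.9% of all genes tested lay lower in aOL and 31.9% higher. In bulk samples, fewer cells of a type and less RNA per cell cannot be told apart. With 2 libraries against 2, an exact permutation test of a single gene cannot go below p = 0.333.

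Apoe and Clu encode the apolipoproteins E and J, which carry cholesterol and other lipids on particles secreted by astrocytes. The log2 value of Apoe was 15.91 and 16.13 in aOPC against 15.13 and 15.37 in aOL. Apoe was lower in both aOL libraries than in either aOPC library, with a difference of -0.76 ± 0.22 (standard error), which corresponds to 0.589 of the aOPC value, and it did not pass the test (limma adjusted p = 0.167). This was the smallest p of the 8 genes. Clu was at 11.11 and 10.08 in aOPC and at 10.61 and 10.21 in aOL. Both aOL values of Clu lay between those of the aOPC libraries, and the difference was -0.18 ± 0.42 (limma adjusted p = 0.810).

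Glul encodes glutamine synthetase, which turns glutamate taken up from synapses into glutamine. It was at 16.14 and 17.52 in aOPC and at 15.67 and 15.70 in aOL. The groups of Glul did not overlap, but its aOPC libraries lay 1.38 apart, more than the group difference of -1.14 ± 0.51 (limma adjusted p = 0.264). Aldh1l1, the 10-formyltetrahydrofolate dehydrogenase of folate metabolism whose promoter is widely used to label astrocytes, was at 7.48 and 6.14 in aOPC and at 7.37 and 7.47 in aOL. Only aOPC replicate 3 stood apart for Aldh1l1, and the difference was 0.61 ± 0.50 (limma adjusted p = 0.487).

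Gfap encodes the intermediate filament that defines fibrous and reactive astrocytes. Its log2 value was 10.06 and 9.59 in aOPC against 9.11 and 9.10 in aOL. The aOL libraries were almost identical for Gfap and lay below both aOPC libraries, with a difference of -0.72 ± 0.25 (limma adjusted p = 0.194). S100b, a calcium-binding protein made by astrocytes and by oligodendrocytes, was at 14.07 and 12.48 in aOPC and at 12.36 and 12.60 in aOL. Here aOPC replicate 2 alone was high, while aOPC replicate 3 lay between the aOL libraries, and the difference was -0.80 ± 0.58 (limma adjusted p = 0.441).

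Aqp4 encodes the water channel of the astrocyte endfoot. It was at 8.28 and 7.86 in aOPC and at 8.19 and 6.66 in aOL, so that aOL replicate 3 was the low library and aOL replicate 2 lay within the aOPC range. The difference was -0.64 ± 0.58 (limma adjusted p = 0.524). Sparcl1 (hevin), a secreted matrix protein through which astrocytes promote synapse formation, was at 10.80 and 8.33 in aOPC and at 9.92 and 11.34 in aOL. Its aOPC libraries lay 2.47 apart, a gap exceeded by 2.09% of all genes tested, and the difference between the groups was 1.06 ± 1.01 (limma adjusted p = 0.545).

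The spread between the aOPC libraries was thus wide for most of these genes. The gap between aOPC libraries was larger than that between aOL libraries for 6 of the 8 genes, with medians of 1.19 and 0.24, and 83.1% of all genes tested had the larger gap in aOPC. Calls depended on which aOPC library was kept. Without aOPC replicate 2, Aldh1l1 was called higher in aOL (1.28, limma adjusted p = 0.0183) and Glul lower (-1.83, adjusted p = 0.0183), in a fit that called 34.2% of all genes. Glul was at -0.45 without aOPC replicate 3 and was not called (limma adjusted p = 0.0665). Without aOPC replicate 3, Gfap (-0.96) and S100b (-1.59) were called lower (limma adjusted p = 0.0445 for each), while 17.7% of all genes were called. In those fits the lone aOPC library is assumed to vary like the aOL libraries. S100b was at -0.01 without aOPC replicate 2, Sparcl1 at -0.17 and Aldh1l1 at -0.061 without aOPC replicate 3, Clu at 0.33 without aOPC replicate 2, and Aqp4 at 0.12 without aOL replicate 3.

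**Figure D1:**
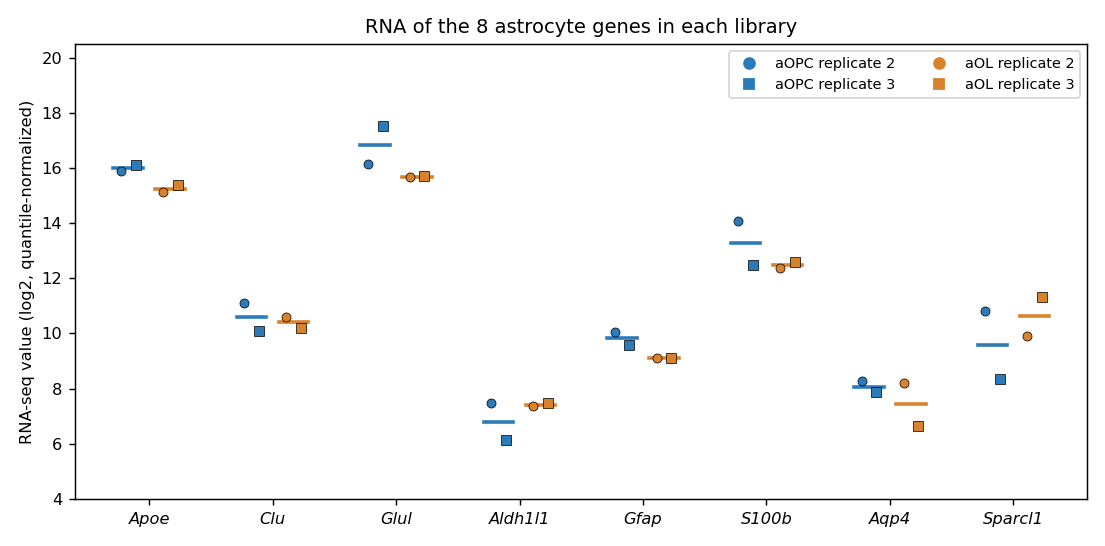
RNA-seq value (log2, quantile-normalized by the authors, y axis) of the 8 astrocyte genes (x axis) in each library, with circles for replicate 2, squares for replicate 3, blue for aOPC, orange for aOL and a bar at the mean of 2 libraries. The groups are apart for Apoe, Glul and Gfap, and the aOPC points of Sparcl1 lie 2.47 apart.

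Most of the 8 genes had close neighbours among the genes tested, over only 4 libraries. By the root mean square difference of values centred over the 4 RNA-seq libraries, the tested gene most like Aldh1l1 was Ttc13 (0.018 log2 units), that most like Apoe was Ddrgk1 (0.021), that most like Gfap was Gng11 (0.022) and that most like Clu was Tmtc4 (0.025). The nearest gene was Zbtb8a for Glul (0.059), Scn8a for S100b (0.070) and Sfi1 for Sparcl1 (0.27). Among the 8 genes themselves the closest pair was Gfap and Apoe, at 0.26.

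The 8 genes were next set beside 20 other astrocyte markers and beside the pathways in which they work. None of 109 companion genes tested, from 15 lists, was called (limma, the same rule), and at an unadjusted p under 0.05, 13 were higher and 26 lower in aOL, against 1346 higher and 1331 lower of all 11133 genes tested. Of the 20 other astrocyte markers, 9 lay higher and 11 lower in aOL, with a median difference of -0.18, so these markers lay on both sides of 0. Their median log2 value was 9.44 and 8.63 in aOPC against 8.06 and 9.21 in aOL. The smallest p-values among them belonged to Gjb6, the gap junction protein connexin 30, and to Cbs, which makes cystathionine. Gjb6 was at 9.90 and 9.44 in aOPC and at 7.13 and 6.44 in aOL (limma adjusted p = 0.106). Cbs was at 10.07 and 9.61 in aOPC and at 8.17 and 8.31 in aOL (adjusted p = 0.122).

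Partners of the water channel lay in different places from Aqp4. Of 7 tested genes for the dystrophin complex, potassium channel and water channels, 6 lay higher in aOL, with a median difference of 0.25. Kcnj10, the inward rectifier Kir4.1 that astrocytes and oligodendrocytes share, was at 13.49 and 12.95 in aOPC and at 16.23 and 16.03 in aOL, a difference of 2.91 ± 0.27 that missed the adjusted threshold (limma adjusted p = 0.0780). Aqp1, another water channel, was at 1.80 in each aOPC library and at 6.96 and 9.05 in aOL (adjusted p = 0.106). The value of aOPC replicate 3 is the low value that 96 genes share in that library, so no fold change is given for Aqp1.

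S100b belongs to a family of small calcium-binding proteins. All 6 tested relatives of S100b were lower in both aOL libraries than in either aOPC library, each with an unadjusted p under 0.05, and none passed the adjusted threshold (limma). Of all genes tested, 29.9% lay lower without overlap, and 1331 of 11133 lay lower with an unadjusted p under 0.05. Their median difference was -1.25. S100a1 was at 13.56 and 13.60 in aOPC and at 12.42 and 12.53 in aOL (adjusted p = 0.127), and S100a10, the partner of annexin A2, was at 7.70 and 7.94 against 6.61 and 6.18 (adjusted p = 0.128). S100b itself overlapped between the groups.

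The filament, folate, glutamate and lipoprotein lists had genes on both sides of 0. Of 4 tested intermediate filament and linker genes, 1 lay higher, and the smallest p-values were those of Synm (12.28 and 12.09 in aOPC, 12.99 and 12.79 in aOL) and Lmna (11.72 and 11.69, 11.34 and 11.35). Of 8 folate enzymes 4 lay higher and 4 lower, among them Mthfd1 (11.24 and 11.08 in aOPC, 11.90 and 11.86 in aOL). Of 8 tested genes of glutamate and glutamine handling 6 lay higher, led by the glutamine carrier Slc38a2 (15.67 and 15.52 in aOPC, 16.79 and 16.71 in aOL) with a difference of 1.16 ± 0.19 (limma adjusted p = 0.127), whereas its relative Slc38a3 was at 8.19 and 7.78 in aOPC and at 7.30 and 7.06 in aOL.

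Of 9 tested genes for lipoprotein particles and their receptors 5 lay higher and 4 lower. Apod, an apolipoprotein of oligodendrocytes, was at 16.97 and 16.94 in aOPC and at 16.32 and 16.41 in aOL. Of 7 other genes of the SPARC family, to which Sparcl1 belongs, 4 lay higher and 3 lower. None of these 7 overlapped between the groups, as for 61.8% of all genes tested, whereas Sparcl1 itself overlapped. The median difference of the 7 genes was 0.51. Smoc2 was at 7.65 and 7.07 in aOPC and at 3.37 and 1.63 in aOL (limma adjusted p = 0.112), while Smoc1 lay the other way at 10.38 and 10.53 in aOPC and at 11.72 and 11.53 in aOL. The Smoc2 value of aOL replicate 3 is the low value that 85 genes share in that library.

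Markers of other cell types varied beside the astrocyte genes, and their part in the differences above was not tested. Of the progenitor markers tested, 3 lay higher and 6 lower in aOL, with Neu4 at 9.90 and 7.07 in aOPC and at 3.03 and 3.61 in aOL and Vcan at 8.87 and 5.27 against 2.49 and 3.24. Of the 10 oligodendrocyte markers 5 lay higher and 4 lower in aOL, with a median difference of 0.00, and those with the smallest p were both lower, Opalin at 16.13 and 15.88 in aOPC and at 14.88 and 15.17 in aOL and Cldn11 at 16.24 and 16.63 against 15.55 and 15.80. The median of 9 listed microglia markers was 8.30 and 7.57 in aOPC against 7.52 and 7.17 in aOL, and 3 of them lay higher and 6 lower. The smallest p-values were those of Tmem119, which was at 8.33 and 8.05 against 7.68 and 7.24 and C1qa at 7.97 and 7.57 against 7.34 and 7.17. The median of 6 listed neuron markers was 6.95 and 5.16 in aOPC against 5.44 and 5.17 in aOL, and all 5 that were tested lay lower, with Stmn2 at 7.42 and 6.53 against 5.28 and 4.46 and Tubb3 at 11.84 and 12.41 against 11.57 and 11.76.

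Few endothelial and mural markers were listed. Of 7 endothelial markers 2 were listed, with Cldn5 at 0.33 and 1.80 in aOPC and at 5.92 and 7.13 in aOL and Slco1c1 at 5.56 and 6.14 against 6.41 and 5.63. Both aOPC values of Cldn5 are low values that other genes share in their library (23 genes in replicate 2 and 96 in replicate 3). Of 5 mural markers 2 were listed, with Acta2 at 2.46 and 5.27 in aOPC and at 5.07 and 5.26 in aOL and Vtn at 4.96 and 7.09 against 5.99 and 9.74. All 4 ependymal markers were listed, with Foxj1 at 10.90 and 10.996 in aOPC and at 10.23 and 10.34 in aOL and Ccdc153 at 4.74 and 3.50 against 5.73 and 5.52.

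**Figure D2:**
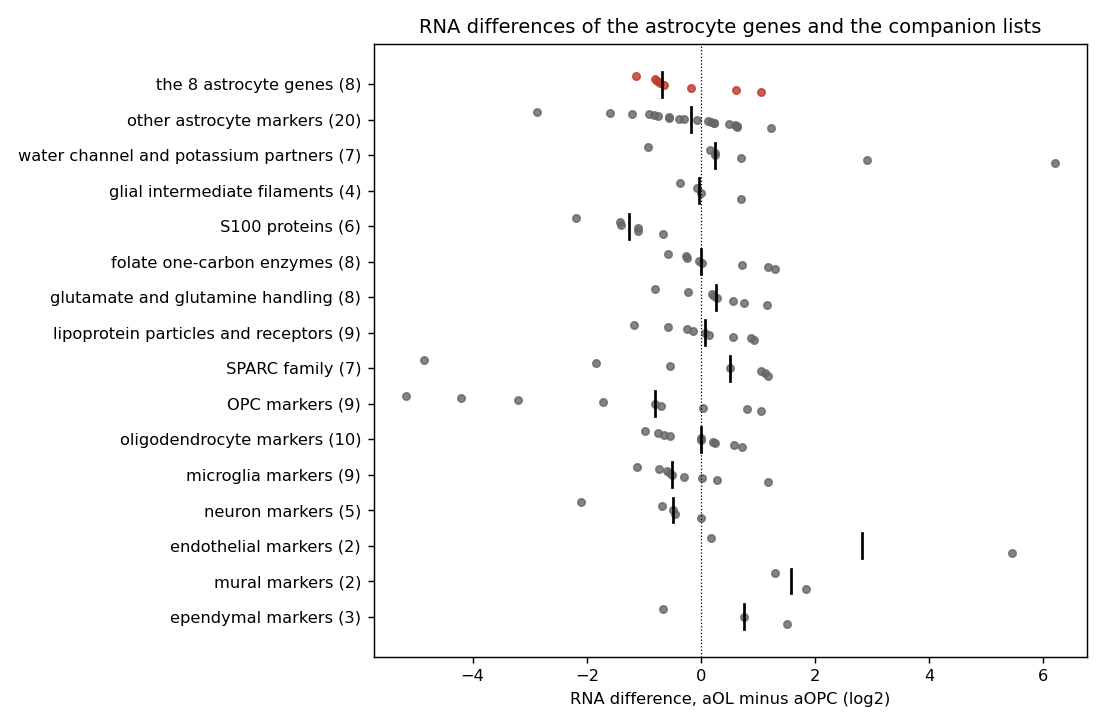
RNA difference (aOL minus aOPC, log2, x axis) of each tested gene in the 8 astrocyte genes (red) and the 15 companion lists (grey), with a black bar at each list's median and the number of genes tested in brackets. The 8 astrocyte genes have a median of -0.68, the S100 proteins of -1.25 and the other astrocyte markers of -0.18.

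5-hydroxymethylcytosine (5hmC) is made from 5-methylcytosine by the TET enzymes and accumulates in the gene bodies of neural cells. In RRHP a glucose is added to 5hmC and keeps MspI from cutting there, so that reads come only from CCGG sites that carry the mark. Within the RefSeq spans of the 8 genes there were 167 CCGG sites, and 126 (75.4%) were read in at least 1 library. The shares were lowest for S100b (4 of 8) and Aldh1l1 (19 of 37) and highest for Glul (31 of 32), while Apoe had 8 of 9, Clu 19 of 23, Aqp4 12 of 15, Sparcl1 26 of 33 and Gfap 7 of 10.

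The sequences around the sites that carried most reads are shown to let the reads be placed in their context. They come from the plus strand of GRCm38, the build of the files, and capitals mark CCGG. The site is the inner C of CCGG for a plus-strand read and the base opposite the inner G for a minus-strand read. The most-read sites of Aldh1l1, Clu, Glul and S100b lay in introns (the Clu site also lies upstream of another annotated start), and that of Gfap in a coding exon.
Aldh1l1, chr6:90593388-90593417: cctagggaggataCCGGtaccaaaccatag
Clu, chr14:65969222-65969251: acgtctgatcccaCCGGatcactttataga
Glul, chr1:153901786-153901815: cagaaaatattatCCGGtgggatcgtcaaa
S100b, chr10:76256727-76256756: ccaccaggaagacCCGGagtcattccctaa
Gfap, chr11:102893021-102893050: tgaggtgagctcaCCGGttttcttcgccct

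The most-read site took from 13.9% (Sparcl1) to 51.4% (Gfap) of a gene's reads. The Aldh1l1 site (chromosome 6, position 90593402, plus strand) had 87 and 118 reads in aOPC (replicate 2 first) against 124 and 173 in aOL, which was 30.5% of all Aldh1l1 reads. The Clu site (chromosome 14, 65969237, minus strand) had 45 and 90 reads in aOPC against 88 and 135 in aOL, and the Glul site (chromosome 1, 153901801, minus strand) had 52 and 92 against 65 and 135. The S100b site (chromosome 10, 76256741, plus strand) had 21 and 61 against 73 and 111, and the Gfap site (chromosome 11, 102893035, plus strand) had 4 and 11 against 11 and 28, or 51.4% of the few reads of Gfap. The most-read Aqp4 site (minus strand, intronic) had 18 and 31 reads in aOPC against 21 and 31 in aOL. In Sparcl1 the most-read site (minus strand, in the intron stretch shown next) had 35 and 85 against 86 and 126, and in Apoe (chromosome 7, 19698307, plus strand) it had 8 and 20 against 5 and 26. None of these sites was called (edgeR).

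The setting densest in CpG had the fewest reads per site. An intronic stretch at the start of Glul, inside a CpG island, holds 6 CCGG and 19 CpG in 191 bases, and its 8 listed sites had 64 reads over all 4 libraries. A stretch of an intron of Sparcl1 with 2 CCGG and 4 CpG in 146 bases had 643 reads at 3 sites, and a stretch of an Aldh1l1 intron with 3 CCGG and 3 CpG in 124 bases had 358 reads at 4 sites. The 3 stretches are shown to compare a dense with a sparse setting.
Glul, chr1:153900180-153900370: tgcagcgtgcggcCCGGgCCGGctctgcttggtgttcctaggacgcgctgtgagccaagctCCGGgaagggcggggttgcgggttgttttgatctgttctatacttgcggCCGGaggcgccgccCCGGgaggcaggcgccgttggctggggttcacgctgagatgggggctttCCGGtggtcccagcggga
Sparcl1, chr5:104087576-104087721: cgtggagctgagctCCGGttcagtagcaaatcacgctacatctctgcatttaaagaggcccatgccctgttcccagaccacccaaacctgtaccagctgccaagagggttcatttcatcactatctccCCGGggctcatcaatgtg
Aldh1l1, chr6:90569951-90570074: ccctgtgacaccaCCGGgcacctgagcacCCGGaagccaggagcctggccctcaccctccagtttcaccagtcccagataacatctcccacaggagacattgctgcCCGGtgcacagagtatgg

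Over the 175 sites, the 42 with 11 or more CpG in the window around them (100 bases on either side) had a median of 0.165 CPM, the 47 with 6 to 10 CpG 0.532 CPM and the 86 with up to 5 CpG 0.418 CPM. Over all 1494474 sites on assembled chromosomes these medians were 0.137, 0.275 and 0.240 CPM. Spearman's rho between CpG number and mean CPM was -0.12 over the 175 sites and -0.03 over all, and it is given as a description, since neighbouring sites share fragments and libraries. Of the 31 sites in CpG islands, 30 belonged to Glul.

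5hmC in the gene body was then compared between aOPC and aOL, from the counts of all sites in exon or intron columns. None of the 8 genes was called (edgeR quasi-likelihood test with TMM scaling, adjusted p under 0.05, which called 0.849% of 18488 genes), 2 had an unadjusted p under 0.05 (Apoe and Glul) where 7.30% of all genes had, and DESeq2 called none. In CPM of the library totals, S100b, Sparcl1 and Gfap were higher in both aOL libraries than in either aOPC library and Apoe, Glul and Aqp4 lower, where 21.0% and 17.8% of all genes tested lay higher or lower without overlap. The median log2 fold change of the 8 genes (aOL over aOPC) was -0.03 and that of all genes -0.00.

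Apoe (chromosome 7, 19696244 to 19701310) had 92 and 86 reads in aOPC against 52 and 106 in aOL, that is 12.9 and 5.02 CPM in aOPC and 3.27 and 3.92 CPM in aOL. Its log2 fold change of -1.26 ± 0.41 was the lowest of the 8 and lay at percentile 1.21 of all gene bodies (edgeR adjusted p = 0.377). The high value rested on aOPC replicate 2, the shallowest library, and without it the log2 fold change was -0.49. Without aOPC replicate 3 Apoe was called at -1.82 (edgeR adjusted p = 9.26e-09), in a fit that called 22.7% of all gene bodies and in which the lone aOPC library, the shallowest, is assumed to vary like the aOL libraries. Clu (chromosome 14, 65968483 to 65981548) had 22.4 and 19.98 CPM in aOPC and 19.8 and 20.6 CPM in aOL, which overlapped, with a log2 fold change of -0.07 ± 0.15 (edgeR adjusted p = 0.915).

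Glul (chromosome 1, 153899929 to 153909723) had 39.2 and 25.9 CPM in aOPC and 23.05 and 25.2 CPM in aOL. Again aOPC replicate 2 was the high library, and the log2 fold change of -0.41 ± 0.18 (edgeR adjusted p = 0.680) was -0.12 without it. In that same fit without aOPC replicate 3 Glul was called at -0.69 (edgeR adjusted p = 5.37e-05). Aldh1l1 (chromosome 6, 90550768 to 90599171) had 22.4 and 19.5 CPM in aOPC and 21.4 and 20.7 CPM in aOL, with a log2 fold change of 0.01 ± 0.15 (edgeR adjusted p = 0.989).

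S100b (chromosome 10, 76253836 to 76261319) had 5.62 and 9.46 CPM in aOPC and 12.2 and 10.3 CPM in aOL. Both aOL libraries were above aOPC, with aOPC replicate 2 the lowest, and the log2 fold change was 0.50 ± 0.25 (edgeR adjusted p = 0.726). Sparcl1 (chromosome 5, 104079108 to 104114088) had 21.1 and 28.0 CPM in aOPC and 33.3 and 29.2 CPM in aOL, with a log2 fold change of 0.31 ± 0.16 (edgeR adjusted p = 0.729). Without aOPC replicate 3 S100b was called at 0.995 (edgeR adjusted p = 0.00198) and Sparcl1 at 0.57 (adjusted p = 0.00398), in the same fit with 1 aOPC library, and without aOPC replicate 2 S100b was at 0.22 and Sparcl1 at 0.13.

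Aqp4 (chromosome 18, 15389394 to 15410982) had 9.56 and 8.99 CPM in aOPC and 7.54 and 7.39 CPM in aOL, with a log2 fold change of -0.32 ± 0.21 (edgeR adjusted p = 0.762). Gfap (chromosome 11, 102887336 to 102897200) had the fewest reads, 9 and 22 in aOPC against 21 and 53 in aOL, which gave 1.27 and 1.28 CPM against 1.32 and 1.96 CPM. Its log2 fold change of 0.36 ± 0.57 was not distinguishable from 0 at this depth (edgeR adjusted p = 0.878).

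**Figure D3:**
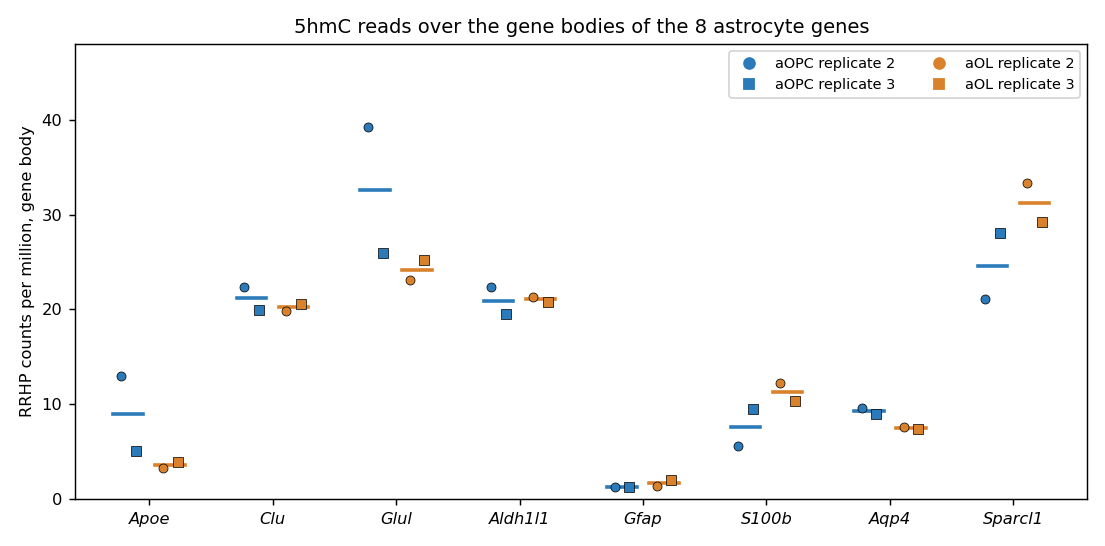
RRHP CPM over the gene body (y axis, from 0) of the 8 astrocyte genes (x axis) in each library, with circles for replicate 2, squares for replicate 3, blue for aOPC, orange for aOL and a bar at the mean of 2 libraries. aOPC replicate 2 stands above the other libraries for Apoe (12.9 CPM) and Glul (39.2 CPM), and below them for S100b and Sparcl1.

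Per CCGG cytosine in the RefSeq span, a scale that allows genes to be compared, the mean level over 4 libraries was highest in S100b (0.587 CPM) and lowest in Gfap (0.0728 CPM). Clu (0.450), Glul (0.443) and Sparcl1 (0.423) followed S100b, then Aqp4 (0.370), Apoe (0.362) and Aldh1l1 (0.284). The median over 26759 genes with at least 5 CCGG was 0.265 CPM, and 7 of the 8 genes lay above it. The level of Apoe rested on aOPC replicate 2 (0.734 CPM), and without that library it was 0.238 CPM, below Aldh1l1 (0.277) and below the median of all genes (0.263), so that 6 of the 8 genes lay above the median. The libraries of neighbours in this order overlapped, except for Gfap, whose highest library (0.0979 CPM) was below the lowest of any other of the genes (0.188 CPM, Apoe in aOL replicate 2). Gfap lay at percentile 10.4 of those genes and S100b at percentile 87.8.

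Promoters, which in the files' own column reach to about 1000 bases on either side of a start, gave fewer reads. Of the 8 genes, 6 were tested and none was called by edgeR, where 0.768% of 14579 promoters were called, none had an unadjusted p under 0.05 (5.97% of all promoters had), and DESeq2 called none. S100b had no promoter site and Gfap had 2, too few for a test. All 12 Apoe sites counted both as promoter and as gene body, so its promoter counts are the same reads, and its log2 fold change there was -0.68 ± 0.41 (edgeR adjusted p = 0.998). Promoters took 8.55% (Wilson 95% interval 8.53 to 8.57) of the counts of aOPC replicate 2 against 4.87% to 5.52% in the others, and with library totals in place of TMM the median promoter shifted by -0.58.

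Glul had 25 promoter sites, of which 24 lay in a CpG island, and these 24 had 49 and 33 reads in aOPC against 32 and 66 in aOL. None of them passed 20 reads over all 4 libraries. The whole Glul promoter was at 6.89 and 1.99 CPM in aOPC and at 2.01 and 2.44 CPM in aOL, with aOPC replicate 2 alone high (log2 fold change -0.28 ± 0.38, edgeR adjusted p = 0.998). The log2 fold changes of the other tested promoters were 0.42 ± 0.44 for Aldh1l1, 0.20 ± 0.49 for Clu, 0.04 ± 0.47 for Aqp4 and 0.04 ± 0.50 for Sparcl1. With library totals these 4 were at -0.036, -0.30, -0.39 and -0.42, so no direction is given for them, and Apoe was at -1.29 and Glul at -0.96. The Glul promoter was at 0.096 without aOPC replicate 2.

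**Figure D4:**
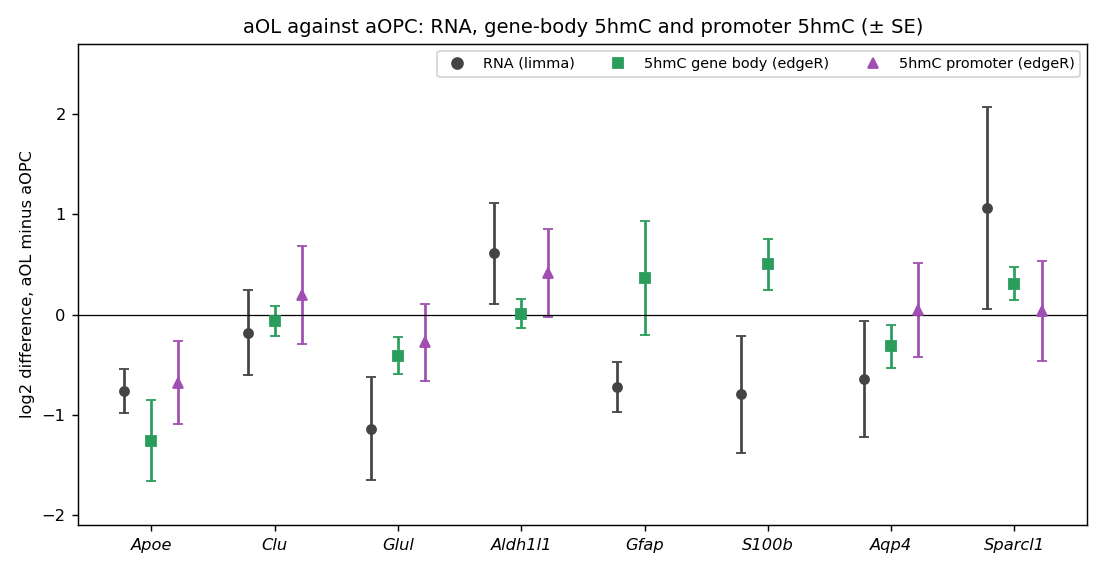
log2 difference between aOL and aOPC (y axis, with standard error) for each of the 8 genes in RNA (limma, circles), gene-body 5hmC (edgeR, squares) and promoter 5hmC (edgeR, triangles, absent for Gfap and S100b). Apoe and Glul lie below 0 in all 3 measures, and none of the values passed its test. All Apoe promoter sites and most Glul promoter sites are also gene-body sites, so these 2 measures share reads. The Glul promoter value turned sign without aOPC replicate 2.

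Set side by side, the RNA and gene-body values of Apoe and Glul both lay below 0, while those of Gfap and S100b lay below 0 in RNA and above 0 in gene bodies. For both Apoe and Glul, however, the higher aOPC library was replicate 3 in RNA and replicate 2 in gene bodies. Glul was at 16.14 and 17.52 in aOPC RNA but at 39.2 and 25.9 CPM in aOPC gene bodies. The RNA differences of Aldh1l1, Clu, Sparcl1 and Aqp4 turned sign when 1 library was left out, as did the gene-body value of Aldh1l1, so shared directions were not counted. DNA and RNA were taken from the same pellets, and the gaps between libraries described above apply to both measures.

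At the level of single CpG sites, 66 of the 175 sites had at least 10 reads in at least 2 libraries and were tested. Of these 34 lay higher and 32 lower in aOL, with a median log2 fold change of 0.04, and 1 was called (edgeR, adjusted p under 0.05, which called 2.29% of 443062 sites). Of the 66 sites, 7 reached 10 reads only in the aOL libraries and 1 only in the aOPC libraries, and such sites were let into the test by the group in which they were high, so these counts carry no weight as support. The called site lay in a coding exon of Sparcl1 (chromosome 5, 104097709, plus strand), 16379 bases downstream of the nearest annotated start, and was read in aOL but hardly in aOPC. The remaining sites with an unadjusted p under 0.05 numbered 6, of which 1 was higher and 5 lower, and 9.75% of all sites tested had such a p. The called site and the site with the next smallest p, in Apoe (chromosome 7, 19698539, plus strand), are shown.
Sparcl1, chr5:104097695-104097724: gaaaggacatttaCCGGgattgccacagcg
Apoe, chr7:19698525-19698554: ttcctctttcttcCCGGctaagtcctgctt

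The Sparcl1 site had 0 and 1 reads in aOPC against 18 and 20 in aOL, so the groups did not overlap. It entered the test only through its aOL counts, so its p-value is given as a description. In CPM this was 0 and 0.0584 in aOPC, where a count of 0 allows up to 0.422 CPM in aOPC replicate 2, and 1.13 and 0.739 in aOL. The summed counts gave a ratio of 21.4 with an exact interval of 3.62 to 868, which covers counting error only, and the fitted log2 fold change of 4.19 ± 0.92 (edgeR adjusted p = 0.0232) depends on the prior count. DESeq2 did not call the site (adjusted p = 0.301), and it was also lost without aOPC replicate 3 (edgeR adjusted p = 0.153) or aOL replicate 2 (adjusted p = 0.183). The minus strand of the same CCGG had 1 read in all, in aOL replicate 3. Further along the gene, the intronic CCGG at 104096852 had reads in both populations, 2 and 27 in aOPC against 41 and 43 in aOL on the plus strand and 7 and 47 against 54 and 65 on the minus strand.

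The Apoe site had 13 and 11 reads in aOPC against 4 and 6 in aOL, passed the minimum of 10 reads only in aOPC, and gave a log2 fold change of -2.27 ± 0.68 (edgeR adjusted p = 0.141). It lies near alternative starts of Apoe, 82 bases downstream of the nearest, and all 4 tested Apoe sites were lower in aOL. In Sparcl1 the site at 104111116 (minus strand, intronic) had 19 and 44 reads in aOPC against 74 and 127 in aOL (0.75 ± 0.31, edgeR adjusted p = 0.414), while the site at 104114047, 41 bases after the start, had 14 and 33 against 19 and 27 (-0.93 ± 0.41, adjusted p = 0.473). Of the 15 tested Sparcl1 sites 11 lay higher in aOL, and of its 3 promoter sites 2 lay lower. All 5 tested S100b sites lay higher in aOL, and 8 of 10 tested Glul sites lay lower. Of all 443062 sites tested, 217941 lay higher. These tallies per gene include sites let into the test by the group in which they were high. Sites of the same gene are not replicates, so the tallies carry no weight as support.

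Reads on the 2 strands of a CCGG were often unequal. Of 131 CCGG loci of the 8 genes, 44 were read on both strands and 87 on 1 strand, and where both were read the higher strand had a median of 1.90 times the reads of the lower, with 17 loci at 3 times or more. Sites with reads in all 4 libraries numbered 112 of 175.

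**Figure D5:**
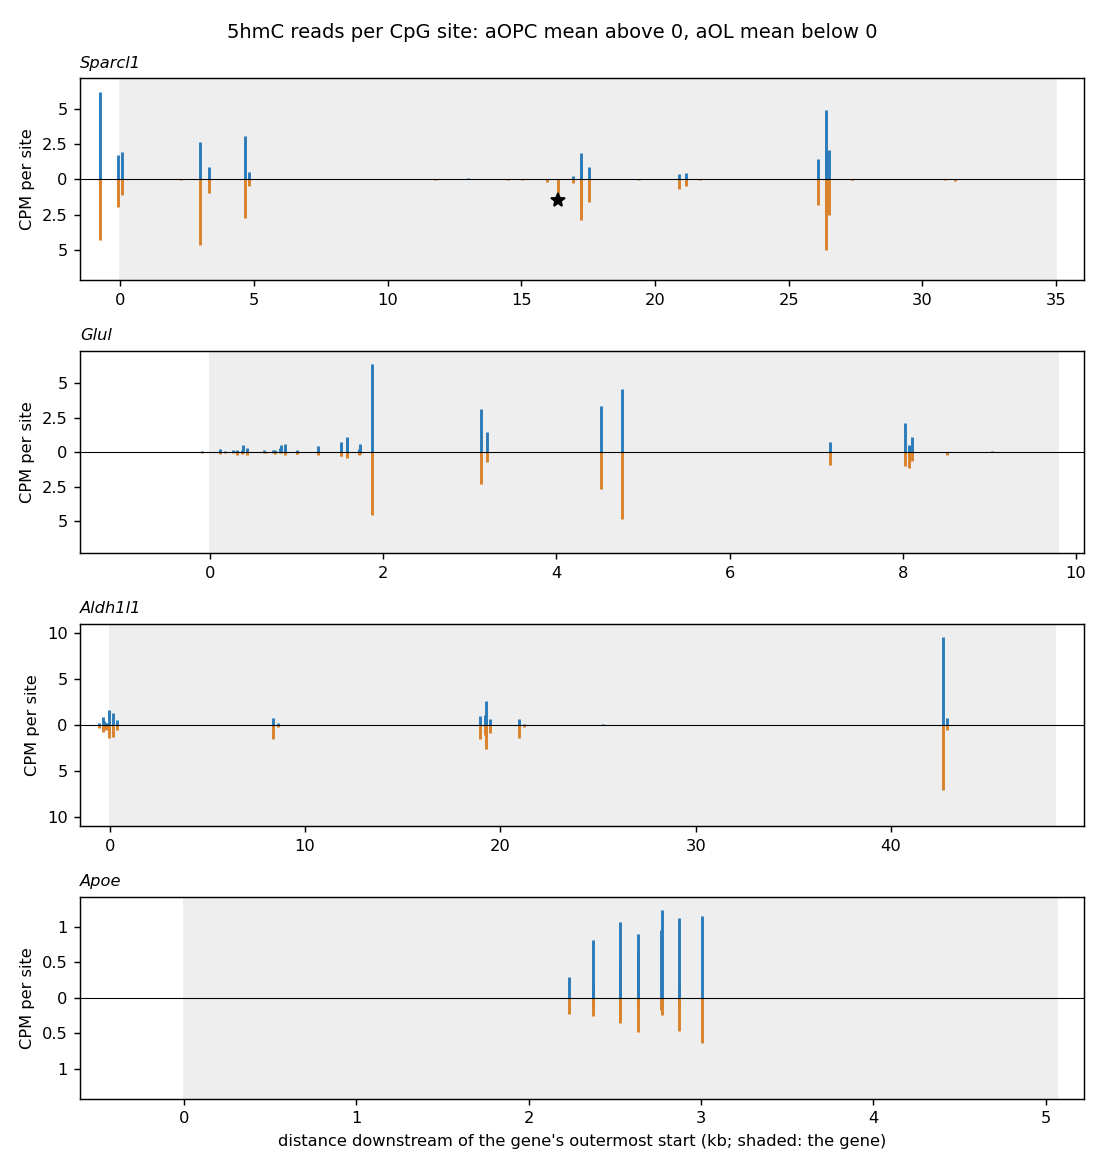
Mean CPM per CpG site in aOPC (blue, above 0) and aOL (orange, below 0) against the distance in kb downstream of the outermost RefSeq start of Sparcl1, Glul, Aldh1l1 and Apoe (grey, the gene). The star marks the called Sparcl1 site, and the first kb of Glul holds many sites of low CPM.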

How the data were processed

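RNA-seq and RRHP were analysed from 2 aOPC and 2 aOL libraries each, with groups taken from the sample titles. The RNA-seq tables deposited by the authors hold log2 values per gene, which the authors made after alignment to mm10 (GRCm38) with BWA and exon counting and which show 1 distribution in all libraries (median 10.57), as quantile normalization gives. Whether they are per length is not given in the sources used here, so RNA levels were not compared between genes. For RRHP the deposited values are raw counts per CpG site and strand, mapped by the authors, with their promoter, exon, intron and CpG island columns. A site listed in only 1 pair of tables was set to 0 in the other. The submitters' processing notes also name DESeq2 1.2.5.

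Testing with limma 3.58.1 took the genes that reached 5 (log2) in 2 or more libraries. RRHP counts were tested with edgeR 4.0.16 (sites reaching 10 reads in 2 or more libraries, sums after filterByExpr, standard errors from the F statistic), with DESeq2 1.42.0 as an alternative. R 4.3.3 and Python 3.11.15 were used, and the fits were tested on simulated data. Depth ran from 7113237 to 27057859 counts, and intervals and the limit of 3 counts cover counting error only. Adjusted p-values are over all features. Annotated features and sequences came from RefSeq GRCm38. The members and the companion lists were chosen with earlier results of these data known. All 8 genes are named in every comparison, from each companion list the genes that passed or otherwise the 2 with the smallest p, and of each gene the called and the most-read site. A few results that this rule names are not reported here.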

Additional observations from a re-analysis of the deposited data

How the results depend on the processing

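No astrocyte gene was called in RNA or promoters, and none in gene bodies, under any planned change of filter, scaling or test with all 4 libraries. With 1 library left out, 0 to 2 genes were called in RNA, 0 to 4 in gene bodies and 0 in promoters, and 0 to 1 CpG sites. The Sparcl1 site was not called by DESeq2 (0 sites called) and could not be tested with at least 10 reads in every library (0 of 24 sites called). Calls among the companion genes changed with the library left out, as did those over all genes. Same-numbered libraries came from different reporter lines, but their RRHP tables listed the same sites (1259056 for replicate 2, 1386042 for replicate 3). Their correlation of deviations was -0.07 in RNA, -0.06 at sites and -0.42 in gene bodies and promoters. A fit with a replicate block called 0 of the 8 genes in RNA and gene bodies. It called 2 sites (Sparcl1 and Apoe 19698539), each let into the test by the group in which it was high. Of 109 companion genes it called 6 (Aqp1, Cldn5, Gjb6, Kcnj10, Pdgfra, Smoc2), and 30 higher and 97 lower of all 11133 genes. Aqp1, Cldn5, Pdgfra and Smoc2 each held a low value that many genes share in a library. Chosen after seeing the data, because that correlation was -0.42 in gene bodies and promoters, the crossed pairing called 1 gene body (Apoe) and 0 promoters of the 8 genes, and 228 higher and 490 lower gene bodies and 249 higher and 88 lower promoters of all. Of 241 single values under alternatives, 204 kept direction and call, 25 changed direction, 9 gained and 3 lost a call, and the cause was not tested. Per CCGG cytosine, 7 of the 8 genes lay above the median of all genes and 6 without aOPC replicate 2, which was also computed after seeing the data. With 1 library left out the RNA difference ran from -1.41 to 0.12 for Aqp4, -0.061 to 1.28 for Aldh1l1, -0.70 to 0.33 for Clu and -0.17 to 2.30 for Sparcl1. The gene-body log2 fold change of Aldh1l1 ran from -0.081 to 0.086, and was -0.038 with 3 reads required in every library and -0.049 outside CpG islands. Promoter log2 fold changes ran from -0.35 to 0.57 for Aqp4, -0.047 to 0.48 for Clu, -0.58 to 0.096 for Glul and -0.32 to 0.48 for Sparcl1. With library totals they were -0.39 for Aqp4, -0.036 for Aldh1l1, -0.30 for Clu and -0.42 for Sparcl1, outside CpG islands -0.17 for Aqp4, -0.048 for Clu and -0.19 for Sparcl1, and with 3 reads required in every library -0.19 for Aqp4 and -0.22 for Sparcl1.

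Over all genes, RNA calls (1 higher and 8 lower) became 0 and 0 without the filter or with it in all libraries, 8 and 15 with a variance trend, 3 and 8 when normalized again, 30 and 97 with the replicate block, and 19 to 1906 higher and 87 to 1899 lower with 1 library left out. Gene-body calls (30 and 127) became 46 and 163 with the block, 7 and 3 with 3 reads in every library, 50 and 203 outside islands, and 13 to 1886 and 71 to 2319 with 1 library left out. Promoter calls (61 and 51) became 34 and 33 by DESeq2, 31 and 68 with library totals, 38 and 43 with the block, 140 and 79 with every gene, 33 and 5 with 3 reads in every library, and 30 to 1399 and 29 to 209 with 1 library left out. Site calls (5382 and 4772) became 2328 and 4262 by DESeq2, 229 and 261 with 10 reads in every library, 6741 and 8465 with 5 reads, and 523 to 6941 and 2521 to 4767 with 1 library left out. With 2 libraries a group, low counts at the sites (Gfap had 105 reads in all) limit what could be detected.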

Other observations

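Of the companion genes, 2 were called in gene-body 5hmC, where 0.849% of all 18488 gene bodies tested were called. Mobp, which encodes a myelin protein, was among them and was lower in aOL. It had 15.04 and 19.04 CPM in aOPC against 7.54 and 8.02 CPM in aOL, a log2 fold change of -1.16 ± 0.19 (edgeR adjusted p = 0.0195).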
